A study of Arabidopsis thaliana with 12 samples.

Results

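The 10 *Arabidopsis* genes described here encode enzymes that make the plant's carotenoids, from phytoene synthase to the pair of enzymes that run the xanthophyll cycle. They were listed by gene identifier, by a rule that uses no measured value, and are 10 of the 26891 genes in the count table. RNA-seq was performed on whole seedlings of the Columbia ecotype in 4 groups with 3 biological replicates each, 12 libraries in all. By the labels, seedlings grew for 7 days in continuous light at 22°C and then for 1 day in blue light, and were 8 days old. The paper describes a shorter time in white light. The groups were *cry1* mutants heated at 44°C for 2 h in blue light, WT heated in the same way, *cry1* mutants kept at 22°C in blue light and WT kept at 22°C in blue light. All 4 groups thus shared the blue light, and *cry1* mutants lack cryptochrome 1 (CRY1), a blue-light receptor. The comparisons ask what heat does to the genes in each genotype, what the loss of CRY1 does at each temperature, and whether the heat response differs between genotypes.

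Carotenoids are made in plastids from isoprenoid precursors. Phytoene synthase (PSY) makes the colourless phytoene, which phytoene desaturase (PDS) and zeta-carotene desaturase (ZDS) turn, with the isomerases Z-ISO and CRTISO, into the red lycopene. Lycopene is the branch point. Lycopene beta-cyclase (LYCB) alone gives beta-carotene, whereas LYCB and lycopene epsilon-cyclase (LYCE) together give alpha-carotene. The cytochrome P450 enzymes LUT5 and LUT1 hydroxylate alpha-carotene to lutein, the most abundant leaf xanthophyll. The hydroxylases BCH1 and BCH2 turn beta-carotene into zeaxanthin. Zeaxanthin epoxidase (ZEP) converts zeaxanthin to violaxanthin, and violaxanthin de-epoxidase (VDE) reverses this step in strong light, when zeaxanthin helps to dissipate excess energy as heat. Violaxanthin and neoxanthin are also the source of abscisic acid (ABA). In seedlings, light raises the transcript level of *PSY*, with the transcription factor HY5 as an activator and PIF1 as a repressor.

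*CRY1* transcript followed the genotype labels. It had no count in any *cry1* library at 44°C, which allows at most 0.186 to 0.197 CPM (3 counts of the library total, counting error only), against 174, 151 and 166 CPM in WT at 44°C. At 22°C it had 0.230, 0.107 and 0.260 CPM in *cry1*, against 226, 201 and 212 CPM in WT. CPM are counts per 1000000 counts of the library total. Library totals lay between 15228953 and 16150217 in *cry1* at 44°C, 10539271 and 11967963 in WT at 44°C, 18616049 and 21752824 in *cry1* at 22°C, and 12395997 and 14295796 in WT at 22°C. Of the tissue markers, all 6 green-shoot genes were detected in every group, with a summed level of 6090 to 6177 CPM in *cry1* at 44°C, 6730 to 8261 CPM in WT at 44°C, 18598 to 19496 CPM in *cry1* at 22°C and 30482 to 31001 CPM in WT at 22°C. The 8 root markers summed to 17.5 to 20.1, 20.3 to 21.8, 89.4 to 99.3 and 86.6 to 103 CPM in the same groups, with *NRT2.1* at 0 in WT at 44°C. Both sums moved with heat as most members did, and the green-shoot sum was also lower in *cry1* than in WT at both temperatures, without overlap. Single markers differed, with library totals as the scale. With heat in WT the root marker *WOX5* rose, *PLT1* showed no clear change and the other root markers tested fell. At 44°C the shoot marker *RCA* was higher in *cry1* than in WT, and the other shoot markers were lower. The part of the marker sums in the results below was not tested. In whole seedlings, fewer cells of a type and less RNA per cell cannot be told apart. Heat also changed what the libraries were made of. With library totals as the scale, the log2 fold change of the median gene was -1.24 for heat in *cry1*, -0.86 for heat in WT, -0.11 for *cry1* against WT at 44°C and 0.26 at 22°C. Under TMM scaling, which assumes that most genes do not change, these medians were -0.081, -0.071, 0.038 and 0.024. Both scales are therefore given for the 10 genes wherever the direction or the call differs. For the other lists they are given as counts or, for the cleavage genes and the regulators, mostly gene by gene.

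*BCH2* was the member that heat moved against the others, so the bases before its annotated start are shown beside those of its paralog *BCH1* and of *ZEP*, the member with the next largest difference between the genotypes in its heat response. Each sequence is the 250 bases upstream of the annotated start (RefSeq, TAIR10.1), read 5′ to 3′ on the strand of the gene, at chr5:21337127-21337376 (minus strand) for *BCH2*, chr4:13096050-13096299 (minus strand) for *BCH1* and chr5:26757403-26757652 (minus strand) for *ZEP*. Capitals mark the G-box CACGTG, a motif bound by HY5 and PIFs among others, and the PBE box CACATG, bound by PIFs, on either strand.
BCH2: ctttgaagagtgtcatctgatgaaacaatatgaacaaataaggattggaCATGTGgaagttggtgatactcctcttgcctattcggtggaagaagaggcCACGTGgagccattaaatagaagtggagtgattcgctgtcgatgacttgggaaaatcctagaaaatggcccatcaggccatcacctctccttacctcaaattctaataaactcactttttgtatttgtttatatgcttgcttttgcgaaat
BCH1: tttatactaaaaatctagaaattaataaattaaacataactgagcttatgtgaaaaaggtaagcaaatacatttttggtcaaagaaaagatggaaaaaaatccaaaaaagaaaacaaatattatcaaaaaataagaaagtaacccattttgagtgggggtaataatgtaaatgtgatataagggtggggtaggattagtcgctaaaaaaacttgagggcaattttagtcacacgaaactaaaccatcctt
ZEP: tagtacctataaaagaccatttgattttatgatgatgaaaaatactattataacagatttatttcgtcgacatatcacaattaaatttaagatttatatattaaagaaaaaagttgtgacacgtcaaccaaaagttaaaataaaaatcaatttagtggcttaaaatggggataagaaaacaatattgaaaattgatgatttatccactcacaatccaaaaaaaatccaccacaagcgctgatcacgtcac
*BCH2* held a G-box from -151 to -146 and a PBE box, on the other strand, from -201 to -196, counted from the annotated start, and they do not overlap. Among the 10 members, both motifs were found in *BCH2* only, in a window from 250 bases before to 50 bases after the start. In windows of the same length, the G-box was present in 7.68% and the PBE box in 12.9% of 27443 promoters. Of the other letters searched on both strands, ATCTA was present in *PDS*, *ZDS* and *BCH1* (54% of promoters), GAANNTTC in *LUT1* (11.6%) and TTCNNGAA in *VDE* (9.16%), the last 2 being pairs of the heat-shock element unit. No searched motif was found in the windows of *PSY*, *LYCB*, *LUT5* or *ZEP*. The search did not cover CACGTC, a variant of the G-box letters that stands in the windows of *LUT5* and *ZEP*. These matches describe the letters and were not tested for binding.

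Compared per length, the order of the 10 genes differed between heated and unheated seedlings, most of all for *BCH2*. In FPKM (CPM per kilobase of exon), *BCH2* was the highest of the 10 in *cry1* at 44°C, at 77.4 ± 4.01 (mean ± SD, n = 3 here and for all SDs below), and its libraries did not overlap with those of *ZEP*, the next at 63.5 ± 4.44 FPKM. In WT at 44°C *ZEP* was the highest, at 46.4 ± 5.85 FPKM, and *BCH2* ranked 4 at 26.5 ± 8.78 FPKM, overlapping with *ZDS* above it and *PDS* below it. *PSY* ranked 5 in *cry1*, at 18.4 ± 1.84 FPKM, and 6 in WT, at 16.4 ± 2.74 FPKM, where it overlapped with *BCH1*. *LUT1* and *LUT5* were the lowest in both genotypes and overlapped in *cry1*. All values of *LUT1*, here and below, are uncertain. Of its 3355 annotated exon bases, 1316 are shared with AT3G53140 on the same strand, a gene that is absent from the count table. Whether reads of AT3G53140 were counted for *LUT1* was not tested.

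At 22°C *ZEP* and *PSY*, the entry enzyme of the pathway, were the highest and *BCH2* was near the low end. *ZEP* had 128 ± 1.57 FPKM in *cry1* and 269 ± 3.71 FPKM in WT, and *PSY* followed with 104 ± 2.85 FPKM in *cry1* and 119.9 ± 2.95 FPKM in WT. *BCH2* and *LUT1* were at 13.1 ± 1.41 and 12.4 ± 1.07 FPKM in *cry1*, where their libraries overlapped, against 19.4 ± 0.459 and 12.9 ± 0.554 FPKM in WT, where they did not. The order in *cry1* was *ZEP*, *PSY*, *ZDS*, *LYCB*, *LUT5*, *PDS*, *BCH1*, *VDE*, *BCH2* and *LUT1*, and *LUT5* and *PDS* overlapped. In WT it was the same but for *PDS*, which stood before *LUT5*, and no neighbours overlapped.

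**Figure D1:**
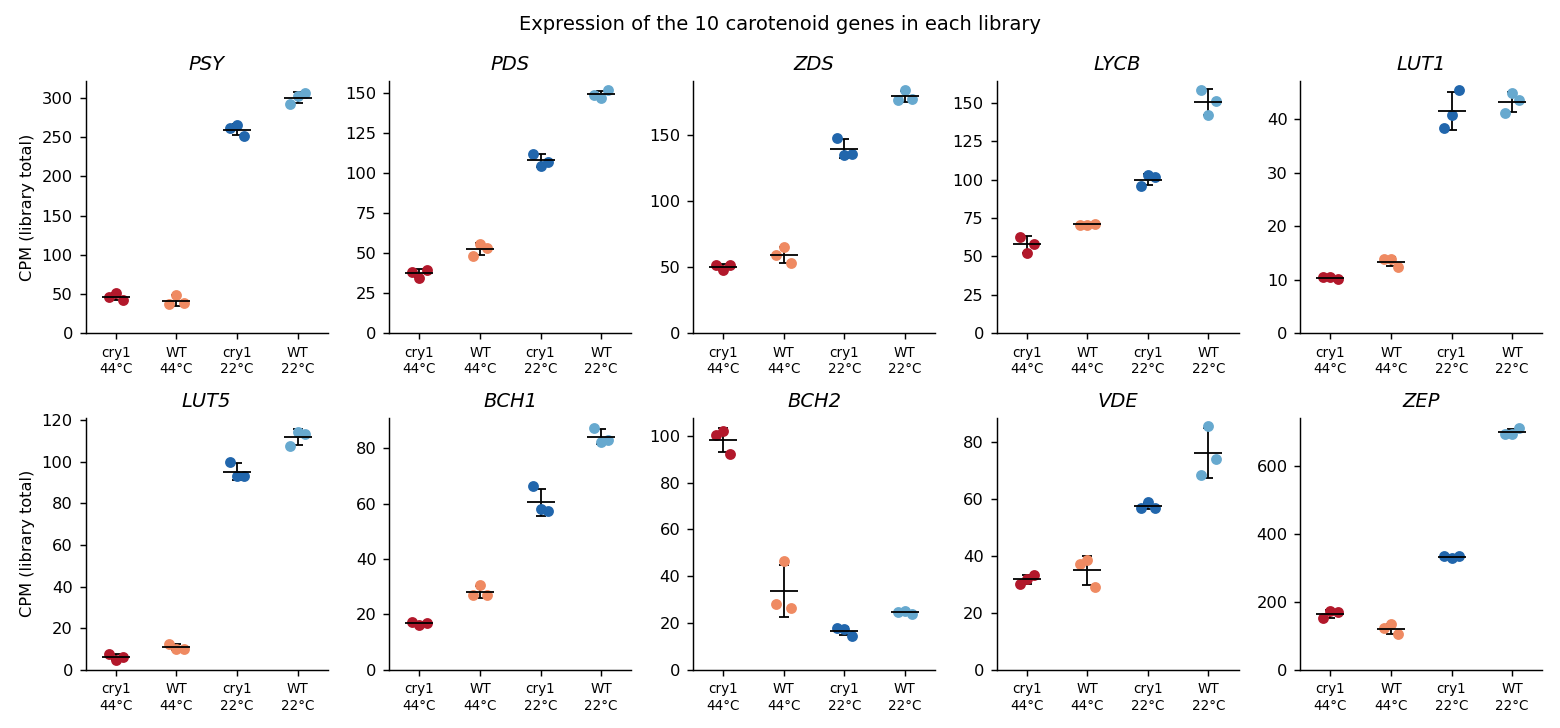
Expression of each of the 10 carotenoid genes in CPM (counts per 1000000 of the library total), 1 panel per gene with its own axis from 0, for *cry1* and WT at 44°C and at 22°C. Points are libraries, and lines with bars are the mean and SD of 3 libraries. In 9 panels the 44°C points lie below the 22°C points of the same genotype, whereas *BCH2* reaches 92.4 to 102 CPM in *cry1* at 44°C.

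Heat lowered most of the pathway. With library totals as the scale, 9 of the 10 genes fell in *cry1* and the same 9 fell in WT, while *BCH2* rose in both. Over all 21307 genes tested, 72.9% fell and 11.3% rose in *cry1*, and 61.1% fell and 15.3% rose in WT, so a fall as such was common. The median log2 fold change of the 10 genes was -1.50 in *cry1*, against -1.24 for all genes, and -1.59 in WT, against -0.86 for all genes. Under TMM scaling 6 fell and 3 rose in *cry1* (37.4% and 34.5% of all genes), whereas 9 fell and 1 rose in WT (36.3% and 33.7%). *LUT5*, *PSY* and, in WT, *ZEP* had the deepest falls on both scales. The 3 genes that turned round in *cry1* were *LYCB* and *VDE*, which were higher at 44°C under TMM scaling, and *ZEP*, which no longer passed the test.

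**Figure D2:**
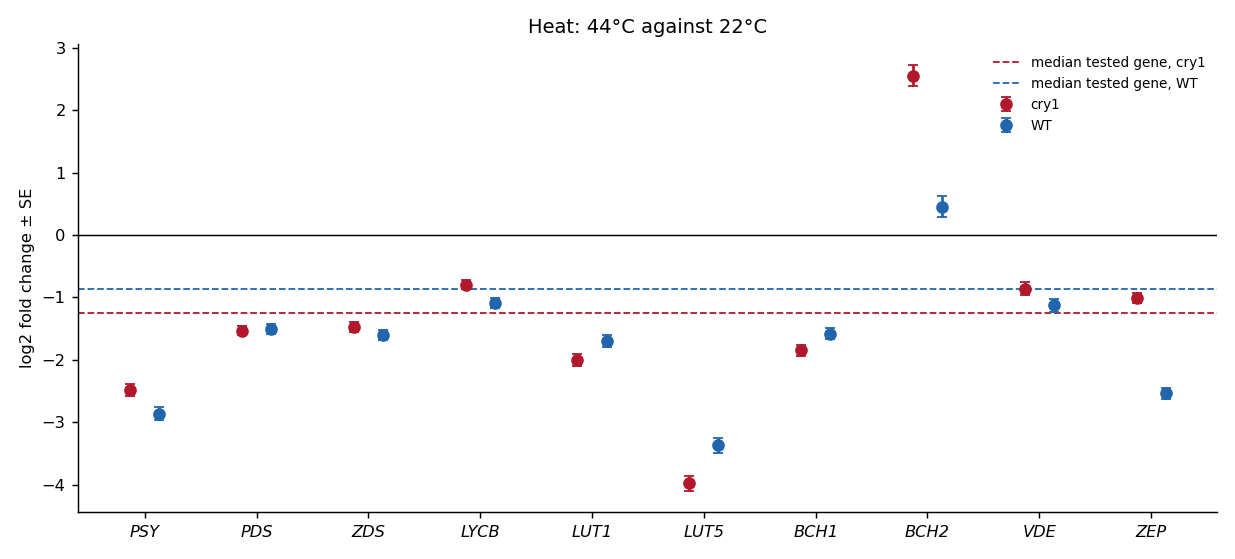
Log2 fold change of each gene at 44°C against 22°C in *cry1* and in WT, with library totals as the scale (points with SE, 3 libraries per group). Dashed lines mark the median of all tested genes, -1.24 in *cry1* and -0.86 in WT, and *BCH2* is the only gene above 0, at 2.56 in *cry1* and 0.46 in WT.

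*PSY* (AT5G17230, chr5:5659554-5662997), which catalyses the first committed step and is often seen as the control point of the pathway, lost most of its transcript with heat. It had 46.3, 50.9 and 41.6 CPM in *cry1* at 44°C, 36.7, 49.1 and 37.8 CPM in WT at 44°C, 262, 266 and 252 CPM in *cry1* at 22°C and 292, 303 and 307 CPM in WT at 22°C. Every 44°C library was far below every 22°C library. The fall was 5.62-fold in *cry1* (log2 fold change -2.49 ± 0.10, where ± is the SE here and for all log2 values below, adjusted p = 1.6e-15 by edgeR with Benjamini-Hochberg adjustment over all genes) and 7.28-fold in WT (-2.86 ± 0.10, adjusted p = 3.5e-16), and under TMM scaling the log2 fold change was -1.32 in *cry1* and -2.07 in WT. Between genotypes the differences were small. At 22°C *PSY* had a log2 fold change of -0.21 ± 0.09 in *cry1* against WT, which missed the threshold (adjusted p = 0.07) with library totals and passed it under TMM scaling (-0.44, adjusted p = 0.0021). At 44°C the value was 0.16 ± 0.10 (adjusted p = 0.25), again past the threshold only under TMM scaling (0.31, adjusted p = 0.04). Without replicate 2 of WT at 44°C, which enters the 22°C comparison only through the shared estimate of the spread, both passed it with library totals (-0.21, adjusted p = 0.027, and 0.31, adjusted p = 0.018).

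Both desaturases fell with heat on both scales. *PDS* (AT4G14210, chr4:8190190-8195320), the target of bleaching herbicides, had 38.3, 34.5 and 39.5 CPM in *cry1* at 44°C, 48.2, 55.9 and 53.3 CPM in WT at 44°C, 112, 104 and 107 CPM in *cry1* at 22°C and 149, 147 and 152 CPM in WT at 22°C. *ZDS* (AT3G04870, chr3:1342455-1346387), which acts on the product of PDS and Z-ISO, had 51.6, 47.6 and 51.5 CPM in *cry1* at 44°C, 59.0, 65.1 and 53.2 CPM in WT at 44°C, 148, 135 and 136 CPM in *cry1* at 22°C and 176, 184 and 177 CPM in WT at 22°C. For *PDS* no 2 groups overlapped, and for *ZDS* the groups at 44°C lay side by side without overlap. Heat lowered *PDS* 2.89-fold in *cry1* (log2 fold change -1.53 ± 0.079, adjusted p = 1.2e-13) and 2.84-fold in WT (-1.51 ± 0.079, adjusted p = 2.3e-13). The fall of *ZDS* was 2.78-fold in *cry1* (adjusted p = 3.2e-13) and 3.03-fold in WT (adjusted p = 1.5e-13). Under TMM scaling the falls were smaller, with log2 fold changes of -0.36 in *cry1* and -0.72 in WT for *PDS*, and -0.31 in *cry1* and -0.81 in WT for *ZDS*. Both were lower in *cry1* at 22°C, where the log2 fold change was -0.47 ± 0.075 for *PDS* and -0.36 ± 0.077 for *ZDS* (adjusted p = 9.6e-05 and 0.0012). At 44°C *PDS* was lower as well (-0.49 ± 0.081, adjusted p = 0.00014). The value for *ZDS* at 44°C (-0.23 ± 0.082, adjusted p = 0.04) did not pass under TMM scaling (-0.091, adjusted p = 0.46), nor in 7 of the 12 fits that left out a library (adjusted p = 0.05 to 0.19), which were those without replicate 1, 2 or 3 of *cry1* at 44°C, replicate 1 or 2 of WT at 44°C, replicate 2 of *cry1* at 22°C or replicate 1 of WT at 22°C. *ZDS* shares 115 exon bases with AT3G04880 on the other strand. That gene averaged 59.3 ± 6.69 CPM in *cry1* and 69.1 ± 1.70 CPM in WT at 44°C (mean ± SD). At 22°C it averaged 37.6 ± 0.345 CPM in *cry1* and 30.4 ± 0.946 CPM in WT. The part of its reads in the values of *ZDS* was not tested.

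At the branch point, *LYCB* (AT3G10230, chr3:3164075-3166038), whose enzyme closes the beta-rings, had 62.8, 52.2 and 58.2 CPM in *cry1* at 44°C, 70.6, 70.6 and 71.3 CPM in WT at 44°C, 95.9, 103 and 102 CPM in *cry1* at 22°C and 159, 142 and 151 CPM in WT at 22°C. The 4 groups did not overlap. With library totals *LYCB* fell 1.73-fold with heat in *cry1* (-0.79 ± 0.078, adjusted p = 5.3e-09) and 2.13-fold in WT (-1.09 ± 0.079, adjusted p = 5.1e-11), which in *cry1* was less than the fall of the median gene. Under TMM scaling the sign turned in *cry1* (0.37, adjusted p = 0.00016) but not in WT (-0.30, adjusted p = 0.0015). *LYCB* had one of the clearer differences between genotypes at 22°C, 1.505-fold lower in *cry1* (-0.59 ± 0.076, adjusted p = 1e-05). At 44°C it was 1.23-fold lower in *cry1* (-0.29 ± 0.08, adjusted p = 0.0089), which did not pass under TMM scaling (-0.15, adjusted p = 0.16) or without replicate 2 of *cry1* at 44°C (-0.23, adjusted p = 0.062). *LYCB* shares 157 and 199 exon bases with AT3G10220 and AT3G02305 on the other strand. AT3G02305 was at most 0.845 CPM in any library, whereas AT3G10220 averaged 27.1 ± 0.455 CPM in *cry1* at 44°C, 28.4 ± 3.41 in WT at 44°C, 19.6 ± 1.56 in *cry1* at 22°C and 16.5 ± 2.41 in WT at 22°C, and none of the sources used here states whether the counting used strand.

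In the lutein branch, *LUT5* (AT1G31800, chr1:11396402-11399714), which hydroxylates the beta-ring of alpha-carotene, had the deepest fall of all 10 genes. It had 7.43, 4.71 and 5.91 CPM in *cry1* at 44°C, 12.4, 10.2 and 9.82 CPM in WT at 44°C, 99.8, 93.1 and 93.0 CPM in *cry1* at 22°C and 107, 115 and 114 CPM in WT at 22°C. The heated libraries held between 72 and 131 counts each, and none came near an unheated one. Heat lowered *LUT5* 15.8-fold in *cry1* (-3.98 ± 0.12, adjusted p = 2e-17) and 10.4-fold in WT (-3.37 ± 0.11, adjusted p = 2.1e-16). Under TMM scaling these values were -2.82 and -2.58. *LUT5* shares 108 exon bases with AT1G31810 on the other strand. That gene averaged 6.68 ± 0.498 CPM in *cry1* and 6.18 ± 1.14 CPM in WT at 44°C (mean ± SD). At 22°C it averaged 11.7 ± 2.16 CPM in *cry1* and 9.52 ± 1.69 CPM in WT. The part of its reads in the values of *LUT5* was not tested. *LUT1* (AT3G53130, chr3:19692757-19697542), which hydroxylates the epsilon-ring, had 10.5, 10.5 and 10.05 CPM in *cry1* at 44°C, 13.9, 13.9 and 12.4 CPM in WT at 44°C, 38.4, 40.8 and 45.4 CPM in *cry1* at 22°C and 41.3, 45.0 and 43.6 CPM in WT at 22°C. It fell with heat in *cry1* (averages of 10.4 ± 0.280 CPM at 44°C and 41.5 ± 3.58 CPM at 22°C, adjusted p = 4.1e-14) and 3.23-fold in WT (adjusted p = 1.3e-12). Under TMM scaling the log2 fold change of *LUT1* was -0.83 in *cry1* and -0.90 in WT. At 22°C the genotypes overlapped for *LUT1* (-0.061 ± 0.086, adjusted p = 0.59). For *LUT5* at 22°C they did not overlap, but the difference missed the threshold (-0.23 ± 0.093, adjusted p = 0.056). Under TMM scaling both were lower in *cry1* at 22°C (*LUT1* -0.29, adjusted p = 0.016, and *LUT5* -0.46, adjusted p = 0.00065). *LUT5* at 22°C also passed without replicate 1 or 2 of *cry1* at 44°C or replicate 1 of WT at 44°C, which are not part of that comparison and enter only through the shared estimate of the spread (adjusted p = 0.032 to 0.048). At 44°C *LUT5* was 1.79-fold lower in *cry1* (-0.84 ± 0.14, adjusted p = 0.00014). *LUT1* was 1.29-fold lower (-0.37 ± 0.11, adjusted p = 0.014), which did not pass under TMM scaling (-0.22, adjusted p = 0.13) or when only the 44°C libraries were fitted (adjusted p = 0.05).

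The paralogs *BCH1* (AT4G25700, chr4:13093869-13096049) and *BCH2* (AT5G52570, chr5:21334793-21337126) encode enzymes of the same reaction, and heat moved them in opposite directions. *BCH1* had 17.3, 16.2 and 17.0 CPM in *cry1* at 44°C, 26.9, 30.5 and 27.0 CPM in WT at 44°C, 66.2, 58.2 and 57.3 CPM in *cry1* at 22°C and 87.5, 82.3 and 83.1 CPM in WT at 22°C. No 2 groups of *BCH1* overlapped. It fell 3.602-fold with heat in *cry1* (-1.85 ± 0.087, adjusted p = 3e-14) and 2.99-fold in WT (-1.58 ± 0.086, adjusted p = 4.5e-13), and it was lower in *cry1* than in WT at 44°C (-0.74 ± 0.092, adjusted p = 6.2e-06) and at 22°C (-0.48 ± 0.08, adjusted p = 0.00015). The heat response of *BCH1* under TMM scaling was -0.68 in *cry1* and -0.79 in WT. *BCH2* had 100.2, 102 and 92.4 CPM in *cry1* at 44°C, 28.1, 46.5 and 26.4 CPM in WT at 44°C, 17.7, 17.6 and 14.6 CPM in *cry1* at 22°C and 24.8, 25.0 and 24.0 CPM in WT at 22°C. The *cry1* libraries at 44°C stood far above all others, and in WT at 44°C replicate 2 stood apart from the other two. Heat raised *BCH2* 5.89-fold in *cry1* (2.56 ± 0.17, adjusted p = 3.2e-09), and 3.72 on the log2 scale under TMM scaling. In WT the rise was 1.37-fold (0.46 ± 0.17, adjusted p = 0.027) and was lost without replicate 2 of WT at 44°C (0.14, adjusted p = 0.21), without replicate 1, 2 or 3 of WT at 22°C (adjusted p = 0.055 to 0.071) and when only the WT libraries were fitted (adjusted p = 0.064). Under TMM scaling it was 1.25 (adjusted p = 7.8e-05).

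The difference between genotypes also had opposite signs at the 2 temperatures for *BCH2*. At 44°C it was 2.91-fold higher in *cry1* (1.54 ± 0.16, adjusted p = 1.6e-05), without overlap. At 22°C it was 1.48-fold lower in *cry1* (-0.56 ± 0.17, adjusted p = 0.021), a call that was lost without replicate 3 of *cry1* (-0.48, adjusted p = 0.075) or replicate 1 or 2 of WT at 22°C (adjusted p = 0.055 and 0.062). The coding sequences of *BCH2* and *BCH1*, of 912 and 933 bases, were identical at 83.7% of aligned bases, and the longest run shared by their transcripts was 33 bases. Some reads could thus have been assigned to either gene, and the part of this in the values was not tested. The 19 exon bases that *BCH2* shares with AT5G52560 on the other strand are few.

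The enzymes of the xanthophyll cycle both fell with heat with library totals, and in *cry1* neither did under TMM scaling. *ZEP* (AT5G67030, chr5:26753469-26757402), also known as *ABA1* because its mutants lack ABA, had 152, 173 and 171 CPM in *cry1* at 44°C, 123, 135 and 105 CPM in WT at 44°C, 336, 328 and 335 CPM in *cry1* at 22°C and 696, 695 and 712 CPM in WT at 22°C. No 2 groups overlapped, and the WT libraries at 22°C held about the same level to within 9.65 CPM (SD). *ZEP* fell 2.01-fold with heat in *cry1* (-1.01 ± 0.084, adjusted p = 3.4e-10) and 5.80-fold in WT (-2.54 ± 0.088, adjusted p = 2.9e-16). Under TMM scaling the fall in WT remained (-1.75, adjusted p = 2.5e-13) and the value in *cry1* was 0.16 (adjusted p = 0.1). At 44°C *ZEP* was 1.37-fold higher in *cry1* than in WT (0.45 ± 0.085, adjusted p = 0.00048). At 22°C it was 2.104-fold lower in *cry1* (-1.07 ± 0.083, adjusted p = 1.5e-08), the largest genotype difference of the 10 genes at that temperature on both scales.

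*VDE* (AT1G08550, chr1:2706868-2709988), known from the *npq1* mutant that cannot make zeaxanthin in strong light, had 30.2, 31.9 and 33.4 CPM in *cry1* at 44°C, 37.1, 38.7 and 29.0 CPM in WT at 44°C, 57.0, 59.0 and 57.0 CPM in *cry1* at 22°C and 68.5, 85.8 and 74.1 CPM in WT at 22°C. The 44°C libraries of both genotypes overlapped and lay below all 22°C libraries. *VDE* fell 1.81-fold with heat in *cry1* (-0.86 ± 0.10, adjusted p = 7.5e-08) and 2.18-fold in WT (-1.12 ± 0.10, adjusted p = 2.2e-09), but under TMM scaling it was higher at 44°C in *cry1* (0.31, adjusted p = 0.0082) and lower in WT (-0.34, adjusted p = 0.0053). At 22°C it was 1.32-fold lower in *cry1* (-0.40 ± 0.10, adjusted p = 0.003), and at 44°C the difference did not pass (-0.14 ± 0.10, adjusted p = 0.38). *VDE* shares 464 exon bases with AT1G08560 on the other strand, which averaged 23.9 ± 1.25 CPM in *cry1* at 44°C, 14.8 ± 3.09 in WT at 44°C, 31.3 ± 11.4 in *cry1* at 22°C and 30.4 ± 9.87 in WT at 22°C. Reads of the shared stretch cannot be told apart where strand was not used, and the values of *VDE* are uncertain to that extent.

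Loss of CRY1 was compared at each temperature. At 22°C none of the carotenoid genes was higher in *cry1*, and 7 of 10 were lower with library totals, the exceptions being *PSY*, *LUT1* and *LUT5*. Over all genes tested, 7.35% were lower and 31.6% were higher in *cry1* at 22°C, and the median log2 fold change was -0.43 for the 10 genes and 0.26 for all genes. Under TMM scaling all 10 were lower and none was higher, against 7.83% of all genes higher and 12.8% of all genes. The differences ranged from -0.061 for *LUT1*, which did not pass, to -1.07 for *ZEP* with library totals. On the TMM scale the same 2 genes marked the ends, at -0.29 and -1.31. The lower green-shoot marker sum in *cry1* at 22°C stands beside this count, and its part was not tested. At 44°C the 10 genes split. *BCH2* and *ZEP* were higher in *cry1*, *PDS*, *ZDS*, *LYCB*, *LUT1*, *LUT5* and *BCH1* were lower, and *PSY* and *VDE* did not pass, where 8.64% of all genes were higher and 17.3% were lower. Under TMM scaling 3 were higher (*PSY*, *BCH2* and *ZEP*) and 3 were lower (*PDS*, *LUT5* and *BCH1*), against 14.5% and 10.5% of all genes. The green-shoot marker sum, with library totals, was lower in *cry1* at 44°C as well, and its part was not tested.

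**Figure D3:**
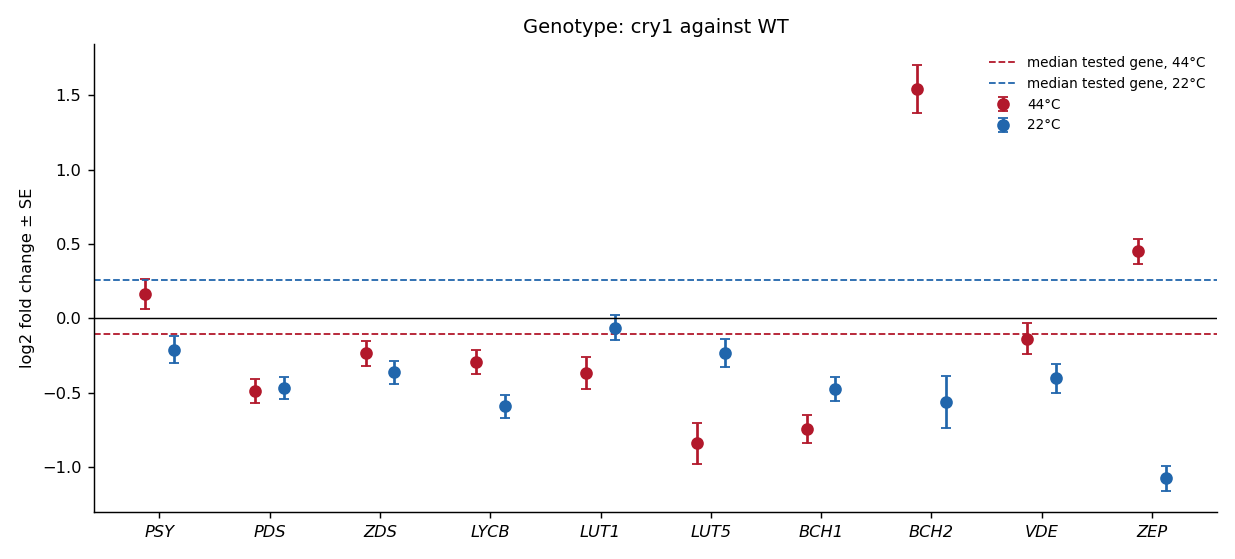
Log2 fold change between *cry1* and WT (*cry1* over WT) of each gene, at 44°C and 22°C, with library totals as the scale (points with SE, 3 libraries per group). Dashed lines mark the median of all tested genes, -0.11 at 44°C and 0.26 at 22°C. *BCH2* and *ZEP* lie above 0 at 44°C (1.54 and 0.45) and below 0 at 22°C (-0.56 and -1.07).

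The heat responses of the genotypes were compared directly, as the log2 fold change in *cry1* minus that in WT. The difference was largest for *BCH2* (2.102 ± 0.24, adjusted p = 3.9e-05) and *ZEP* (1.52 ± 0.12, adjusted p = 5.4e-08), for both of which the level relative to WT was lower at 22°C and higher at 44°C. *PSY* passed the threshold with 0.37 ± 0.13 (adjusted p = 0.043) but not in 10 of the 12 fits that left out a library (adjusted p = 0.052 to 0.13). It passed without replicate 3 of *cry1* at 44°C and without replicate 2 of WT at 44°C. *LUT5* was the 1 gene with a negative difference that passed (-0.61 ± 0.17, adjusted p = 0.01), and it did not pass under TMM scaling (-0.23, adjusted p = 0.37). Together 3 genes passed upward, 1 passed downward and 6 missed the threshold, where 3.88% of all genes were higher and 24.2% were lower and the median gene was at -0.33. Under TMM scaling, with the median gene at 0.044, 7 were higher and none was lower, against 11.4% and 5.4% of all genes. The 4 added were *PDS* (0.35), *ZDS* (0.50), *LYCB* (0.67) and *VDE* (0.64), of which *LYCB* was close to the threshold with library totals (0.29 ± 0.11, adjusted p = 0.051) and passed without replicate 2 of *cry1* at 44°C (0.36, adjusted p = 0.021) or replicate 2 of WT at 22°C (0.34, adjusted p = 0.039). *LUT1*, *LUT5* and *BCH1*, the hydroxylases other than *BCH2*, did not pass on that scale.

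**Figure D4:**
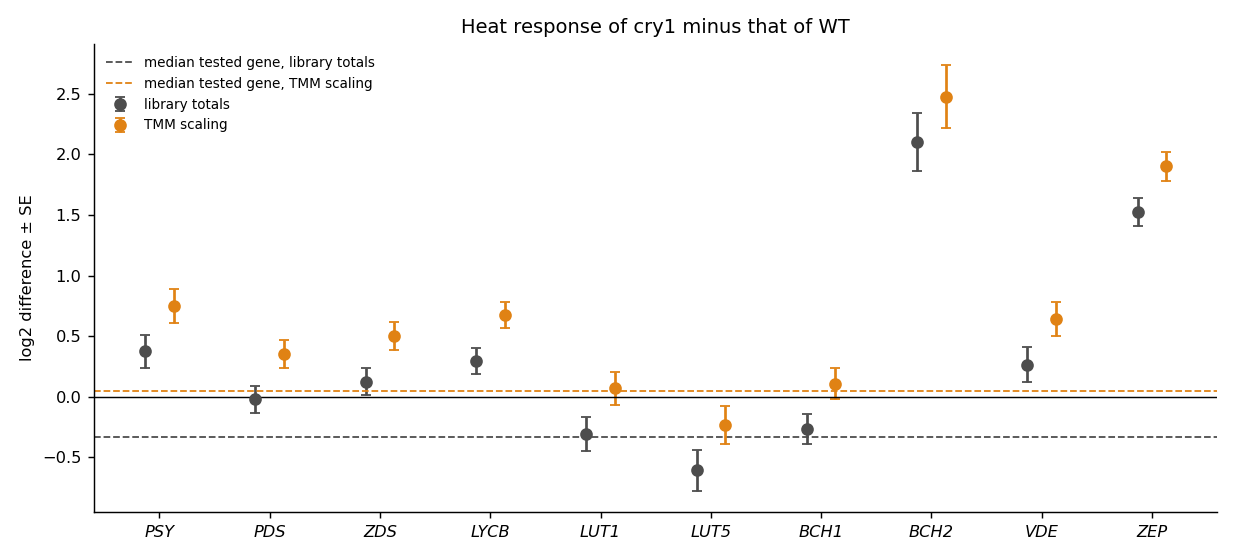
Log2 heat response in *cry1* less the one in WT, by gene, with SE, with library totals and under TMM scaling (4 groups of 3 libraries). Dashed lines mark the median of all tested genes, -0.33 and 0.044. *BCH2* (2.102 and 2.47) and *ZEP* (1.52 and 1.90) lie above the other 8 genes on both scales.

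Ratios between 2 genes of the same library do not depend on how libraries are scaled. For 4 pairs of enzymes that share or oppose a step, the ratio of FPKM was compared with an exact two-sided permutation test over libraries, in which 3 against 3 cannot go below p = 0.10. Of the 16 comparisons 13 reached that floor (adjusted p = 0.123 over the 16), so none passed 0.05, and non-overlap of the groups is the most this test can show. The ratio of *ZEP* to *VDE* was 5.003, 5.39 and 5.08 in *cry1* at 44°C, 3.28, 3.47 and 3.59 in WT at 44°C, 5.84, 5.52 and 5.84 in *cry1* at 22°C and 10.1, 8.04 and 9.54 in WT at 22°C. All 4 groups were separate. The log2 ratio at 44°C minus that at 22°C was -0.15 in *cry1* and -1.41 in WT, and *cry1* differed from WT by 0.58 at 44°C and -0.68 at 22°C (exact permutation p = 0.10 each). The ratio of *BCH2* to *BCH1* was 8.06, 8.76 and 7.55 in *cry1* at 44°C, 1.45, 2.12 and 1.36 in WT at 44°C, 0.372, 0.421 and 0.354 in *cry1* at 22°C and 0.394, 0.423 and 0.401 in WT at 22°C. *BCH2* was thus the higher paralog per length in every library at 44°C and *BCH1* in every library at 22°C. The log2 ratio at 44°C minus that at 22°C was 4.41 in *cry1* and 1.99 in WT, and *cry1* differed from WT by 2.33 at 44°C (exact p = 0.10 each). At 22°C the genotypes overlapped (-0.09, exact p = 0.30).

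The ratios of the cyclases and of the lutein hydroxylases did not overlap between temperatures in either genotype. LYCE acts in the lutein branch, whereas LYCB acts in both branches. The ratio of *LYCE* to *LYCB* was 0.210, 0.317 and 0.224 in *cry1* at 44°C, 0.171, 0.216 and 0.132 in WT at 44°C, 0.724, 0.690 and 0.708 in *cry1* at 22°C and 0.460, 0.496 and 0.511 in WT at 22°C. At 44°C minus 22°C the log2 ratio was -1.52 in *cry1* and -1.53 in WT, without overlap (exact p = 0.10 each). It was higher in *cry1* at 22°C (0.53, exact p = 0.10) and overlapped at 44°C (0.54, exact p = 0.20). The log2 ratio of *LUT1* to *LUT5* was higher at 44°C, by 2.01 in *cry1* and 1.68 in WT (exact p = 0.10 each). It differed between genotypes by 0.50 at 44°C (exact p = 0.10) and by 0.17 at 22°C, where the libraries overlapped (exact p = 0.20).

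**Figure D5:**
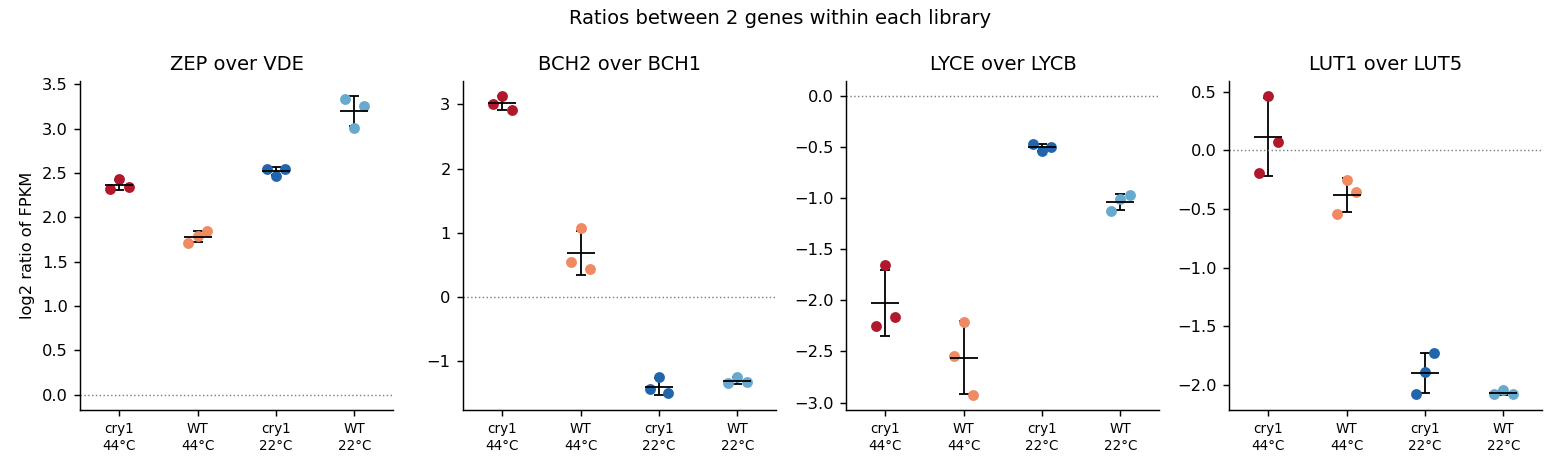
Log2 ratio of FPKM between 2 genes within each library, for *ZEP* over *VDE*, *BCH2* over *BCH1*, *LYCE* over *LYCB* and *LUT1* over *LUT5*, in *cry1* and WT at 44°C and at 22°C. Points are libraries, lines with bars are the mean and SD of 3 libraries, and the dotted line marks equal levels. *BCH2* over *BCH1* lies above 0 in all 6 libraries at 44°C and below 0 in all 6 at 22°C.

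The remaining carotenoid genes were a list of 10 outside the members, all tested. With library totals 9 fell and none rose with heat in either genotype, beside 72.9% of all genes in *cry1* and 61.1% in WT. The median log2 fold change of this list was -1.29 in *cry1* and -1.35 in WT, and -0.073 and -0.075 between *cry1* and WT at 44°C and 22°C. Under TMM scaling 4 fell and 4 rose with heat in *cry1*, beside 37.4% and 34.5% of all genes, and 6 fell and 2 rose in WT, beside 36.3% and 33.7%. The largest falls were those of *LYCE*, the epsilon-cyclase (-2.31 in *cry1* and -2.58 in WT), and *GGPPS11*, which makes the geranylgeranyl diphosphate that PSY uses (-2.47 and -1.97). All exon bases of *GGPPS11* are shared with a long noncoding RNA gene on the other strand, which makes its values uncertain. At 22°C 3 of the 10 were lower in *cry1* and none was higher with library totals, beside 7.35% and 31.6% of all genes, and 6 were lower under TMM scaling, beside 12.8%. The lowest values at 22°C were those of *OR*, whose protein stabilises PSY (-0.46 ± 0.079, adjusted p = 0.00019), and the isomerase *Z-ISO* (-0.41 ± 0.10, adjusted p = 0.0029). At 44°C 2 were lower in *cry1*, *GGPPS11* (-0.78 ± 0.11, adjusted p = 2.5e-05) and *Z-ISO* (-0.54 ± 0.12, adjusted p = 0.003), and none was higher, beside 17.3% and 8.64% of all genes. Under TMM scaling 2 were lower and 3 were higher at 44°C, beside 10.5% and 14.5%. In the difference between heat responses *OR* was higher (0.54 ± 0.11, adjusted p = 0.0015) and *GGPPS11* lower with library totals only (-0.50 ± 0.14, adjusted p = 0.012, and -0.13, adjusted p = 0.61, under TMM scaling). The other 8 did not pass with library totals, where 3.88% of all genes were higher and 24.2% were lower. Under TMM scaling 5 were higher and none was lower, beside 11.4% and 5.4% of all genes, and the 4 added were *LYCE* (0.65, adjusted p = 0.015), *CYP97B3* (0.63, adjusted p = 0.00028), *OR-LIKE* (0.52, adjusted p = 0.015) and *PTOX* (0.49, adjusted p = 0.016).

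Of 9 carotenoid cleavage genes 5 passed the expression filter, with a median log2 fold change of -0.54 for heat in *cry1* and 0.024 in WT. *NCED3* and *NCED9*, which cleave epoxy-carotenoids in the committed step of ABA synthesis, rose with heat, whereas *CCD4* and *CCD1*, which cleave carotenoids to apocarotenoids, fell in WT on both scales, and in *cry1* fell with library totals and were higher at 44°C under TMM scaling. *NCED3*, the main drought-induced gene of the family, had 95.6, 96.5 and 80.6 CPM in *cry1* at 44°C, 89.9, 76.6 and 66.7 CPM in WT at 44°C, 41.0, 36.0 and 35.2 CPM in *cry1* at 22°C and 25.8, 24.0 and 22.5 CPM in WT at 22°C. Every heated library was above every unheated one. The rise was 2.43-fold in *cry1* (adjusted p = 2e-10) and 3.22-fold in WT (adjusted p = 9.2e-12), and 5.45-fold and 5.56-fold under TMM scaling, at the same time as *ZEP*, which acts before it, fell with library totals in both genotypes. *NCED9* rose by 3.46 on the log2 scale in *cry1* and 3.82 in WT, and held only 4 to 19 counts in each library at 22°C. *CCD4*, which breaks carotenoids down, had a log2 fold change of -0.93 in *cry1* (0.24 under TMM scaling, adjusted p = 0.011) and -1.93 in WT. For *CCD1* it was -0.54 in *cry1* (0.62 under TMM scaling, adjusted p = 3.8e-06) and -1.01 in WT. At 22°C *CCD4* had 109, 109 and 122 CPM in *cry1*, against 256, 242 and 255 CPM in WT (-1.15 ± 0.084, adjusted p = 7.5e-09). *CCD1* was lower in *cry1* at 22°C as well (-0.38), and *NCED3* (0.63) and *NCED9* (1.13) were higher, *NCED9* with library totals only (adjusted p = 0.1 under TMM scaling). At 44°C *NCED9* was higher in *cry1* (0.77 ± 0.19, adjusted p = 0.0057) and the other 4 did not pass with library totals, while *NCED3* was also higher under TMM scaling (0.37, adjusted p = 0.0064). In the difference between heat responses *CCD4* (1.01) and *CCD1* (0.47) were higher, and *NCED3* was lower with library totals only (-0.41 ± 0.15, adjusted p = 0.046, and -0.027, adjusted p = 0.93, under TMM scaling).

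The plastid MEP pathway supplies the precursors. The list of 9 genes held its enzymes and the isomerases *IDI1* and *IDI2*, which act after it. Of the 9 genes 8 fell with heat in each genotype with library totals, beside 72.9% of all genes in *cry1* and 61.1% in WT, with *MDS* (-2.17 in *cry1* and -2.28 in WT) and *CMK* (-2.37 and -1.76) the lowest. The exception in both was *IDI2* (-0.15, adjusted p = 0.055, in *cry1* and -0.019, adjusted p = 0.82, in WT). The median was -1.34 in *cry1* and -1.32 in WT, and -0.37 and -0.36 between *cry1* and WT at 44°C and 22°C. Under TMM scaling 4 fell and 4 rose in *cry1*, beside 37.4% and 34.5% of all genes, and 7 fell and 1 rose in WT, beside 36.3% and 33.7%. At 22°C 6 were lower in *cry1* and none was higher with library totals, beside 7.35% and 31.6% of all genes, and 8 were lower under TMM scaling, beside 12.8%. *HDR*, the last enzyme of the pathway, had 336, 313 and 318 CPM in *cry1*, against 644, 666 and 639 CPM in WT (-1.01 ± 0.082, adjusted p = 2.5e-08), and *MDS* was next (-0.60 ± 0.086, adjusted p = 2.6e-05). At 44°C 5 were lower in *cry1* and none was higher with library totals, beside 17.3% and 8.64% of all genes, led by *CMK* (-0.98 ± 0.17, adjusted p = 0.0002) and *MDS* (-0.49 ± 0.11, adjusted p = 0.0017). Under TMM scaling 4 were lower at 44°C, beside 10.5%. The heat response of *HDR* in *cry1* was -0.30 with library totals (adjusted p = 0.0021) and 0.87 under TMM scaling (adjusted p = 5.5e-09). *HDR* (0.93 ± 0.12, adjusted p = 9.7e-06) and *DXS*, the entry enzyme of the MEP pathway (0.42 ± 0.14, adjusted p = 0.031), had a higher heat response in *cry1* than in WT, and *CMK* a lower one with library totals only (-0.62 ± 0.21, adjusted p = 0.034, and -0.24, adjusted p = 0.5, under TMM scaling). In all 2 were higher and 1 was lower with library totals, beside 3.88% and 24.2% of all genes. Under TMM scaling these were 4 and 0, beside 11.4% and 5.4%, with *MDS* (0.49, adjusted p = 0.024) and *HDS* (0.50, adjusted p = 0.0036) added.

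Transcripts of 5 regulators of carotenoid genes were also followed, whose median log2 fold change was -0.86 for heat in *cry1* and 0.031 in WT. *HY5* had 49.7, 47.7 and 52.7 CPM in *cry1* at 44°C, 25.0, 35.6 and 26.6 CPM in WT at 44°C, 19.4, 19.2 and 17.6 CPM in *cry1* at 22°C and 24.0, 24.3 and 25.6 CPM in WT at 22°C. It was highest in *cry1* at 44°C. In WT at 44°C replicate 2 was the highest library, as it was for most members, *BCH2* among them. *HY5* rose with heat in *cry1* (1.42 ± 0.11, adjusted p = 6.9e-11) and did not pass in WT with library totals (0.25 ± 0.11, adjusted p = 0.053), although it did under TMM scaling (1.04, adjusted p = 1e-07). It was higher in *cry1* at 44°C (0.78 ± 0.11, adjusted p = 2e-05) and lower at 22°C (-0.39 ± 0.11, adjusted p = 0.0089), and the heat responses differed by 1.17 ± 0.15 (adjusted p = 1.7e-05), the same order of signs as for *BCH2* and *ZEP*. These values are of transcript, and HY5 protein moved the other way in the paper. Its immunoblots, after a longer heat treatment in blue light, show less HY5 at 44°C than at 22°C. At 44°C they show less in *cry1* mutants than in WT. *PIF1* had 5.33, 7.26 and 7.29 CPM in *cry1* at 44°C, 11.3, 10.4 and 11.6 CPM in WT at 44°C, 24.9, 22.3 and 23.0 CPM in *cry1* at 22°C and 17.5, 14.1 and 17.5 CPM in WT at 22°C. Its signs were the reverse of those of the *HY5* transcript. *PIF1* was lower in *cry1* at 44°C (-0.75 ± 0.14, adjusted p = 0.00065) and higher at 22°C (0.52 ± 0.12, adjusted p = 0.0027, and 0.29, adjusted p = 0.12, under TMM scaling), and the heat responses differed by -1.27 ± 0.19 (adjusted p = 6.9e-05). With heat it fell in *cry1* (-1.82), and in WT it fell with library totals only (-0.56, and 0.23, adjusted p = 0.14, under TMM scaling).

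*PIF3*, a relative of *PIF1*, was higher in *cry1* at 22°C (0.60 ± 0.10, adjusted p = 0.00013) and did not pass at 44°C (-0.28 ± 0.11, adjusted p = 0.053). Its heat response was -0.86 in *cry1* and 0.031 in WT, and under TMM scaling 0.31 and 0.82, with a lower response in *cry1* on both scales (-0.89 and -0.51). *RAP2.2*, a factor that binds the *PSY* promoter, rose with heat in *cry1* (0.38) and in WT (1.00) and was higher in *cry1* at 22°C (0.46 ± 0.077, adjusted p = 0.00014) but did not pass at 44°C (-0.15 ± 0.076, adjusted p = 0.15). *SDG8*, a histone methyltransferase that CRTISO expression requires, fell with heat with library totals only (-1.33 in *cry1* and -0.84 in WT, and -0.16 and -0.053, neither past the threshold, under TMM scaling). *SDG8* was higher in *cry1* at 22°C with library totals only (0.29 ± 0.082, adjusted p = 0.0083, and adjusted p = 0.67 under TMM scaling) and did not pass at 44°C (adjusted p = 0.12). Of the 5 regulators, 1 had a higher and 4 a lower heat response in *cry1* than in WT with library totals, beside 3.88% and 24.2% of all genes, and 1 and 2 under TMM scaling, beside 11.4% and 5.4%.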

How the data were processed

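RNA-seq libraries from 12 samples of *Arabidopsis* seedlings, 3 in each of 4 groups, were grouped by genotype, treatment and replicate number from the sample titles. The deposited table holds the authors' expected counts for 26891 genes, and 8.5 to 11.6% of the nonzero values of each library carry decimals. The paper gives rRNA depletion, trimming with Trimmomatic and quantification with RSEM on TAIR10. The labels name polyA RNA and a stranded kit, and TopHat2 2.0.11 stands in the submitters' processing notes. None of the sources used here states the strand setting of the counting. Unmapped columns numbered 0.

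Values were rounded and fitted with edgeR 4.0.16 in R 4.3.3 (quasi-likelihood with robust estimation, library totals as the scale, 1 term per group, all 12 libraries, common biological coefficient of variation 0.103). A gene was tested if the log2 of its mean FPKM exceeded -5 in every group (21307 genes, among them all 10 members), where FPKM was computed from the counts and TAIR10.1 exon lengths. Calls were made at a Benjamini-Hochberg adjusted p under 0.05 over all tested genes, and the SE was taken as the log2 fold change over the square root of F. Ratios were compared by exact permutation tests (SciPy 1.17.1). Replicates of a group differed by more than sampling noise (chi-square per gene 4.65 to 13.8).

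The rule for the members uses no measured value, but the members, the gene lists and the motifs were chosen with earlier results of these data known. The text names all members and regulators, and per comparison up to 2 higher and 2 lower genes of each other list with the largest changes past the threshold. Alternatives were TMM and median-ratio scaling, DESeq2 1.42.0, other filters, fits restricted to the groups compared, a block for the replicate number, a fold of at least 2, a pseudocount of 1 FPKM for ratios, and the omission of each library in turn.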

Additional observations from a re-analysis of the deposited data

Results flagged for a closer look

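For 4 of the 10 genes the heat responses of *cry1* and WT differed by the test of the difference itself (heat response in *cry1* minus that in WT, edgeR, Benjamini-Hochberg over all genes, 3 libraries per group). With library totals 3 of them were higher and 1 was lower, beside 3.88% and 24.2% of all genes. The log2 difference was 2.102 for *BCH2* (adjusted p = 3.9e-05) and 1.52 for *ZEP* (adjusted p = 5.4e-08). In both cases the 3 *cry1* libraries were all above the 3 WT libraries at 44°C and all below them at 22°C. The difference was 0.37 for *PSY* (adjusted p = 0.043), which passed in only 2 of the 12 fits that left out a library (adjusted p = 0.052 to 0.13 in the other 10). It was -0.61 for *LUT5* (adjusted p = 0.01), which did not pass under TMM scaling (-0.23, adjusted p = 0.37).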

How the results depend on the processing

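Over 990 values of members (a gene, a comparison and an alternative), 887 kept direction and call, 59 lost the call, 32 gained one and 12 reversed. All 12 reversals came from the scaling: with TMM scaling, median-ratio scaling and DESeq2, the heat response in *cry1* was 0.37, 0.40 and 0.40 for *LYCB*, 0.31, 0.33 and 0.34 for *VDE* and 0.16, 0.18 and 0.18 for *ZEP*, and the difference between heat responses was 0.35, 0.35 and 0.35 for *PDS*, where library totals gave negative values. With each of these 3 alternatives, 3 genes rose with heat in *cry1*, 3 were lower in *cry1* at 44°C, and the difference between heat responses was higher for 7 and lower for 0. Asking for a fold of at least 2 left 0 genes higher with heat in WT, 1 lower in *cry1* at 22°C, 1 higher and 0 lower at 44°C, and 0 with a lower heat response in *cry1*. Fitting only the compared groups left 0 genes higher with heat in WT. With a pseudocount of 1 FPKM the log2 ratio of *BCH2* to *BCH1* changed by 4.22 with heat in *cry1*. When 1 library was left out, the genes higher with heat in WT numbered 0 to 1, against 9 lower in each fit. In *cry1* 1 was higher and 9 lower in each. At 44°C 2 to 3 were higher and 4 to 6 lower in *cry1*, at 22°C 0 were higher and 6 to 8 lower, and the difference between heat responses was higher for 2 to 3 and lower for 1. Over all genes the scaling moved the calls too, to 7345 higher and 7962 lower with heat in *cry1* under TMM scaling, against 2403 and 15524 with library totals.

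The replicate block changed 2 of 50 calls: *LUT5* at 22°C passed (-0.23, adjusted p = 0.049, edgeR) and *ZDS* at 44°C did not (-0.23, adjusted p = 0.053). Same-numbered samples did not deviate together in a steady way. Over genes, r was 0.13, -0.13 and 0.23 for replicates 1, 2 and 3 of *cry1* against WT at 22°C. It lay between -0.042 and 0.024 in the other comparisons, so the numbers were not taken to pair samples. *LUT5* at 44°C rests on 72 to 131 counts per library, the lowest of the 10 genes.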
